A study of Arabidopsis thaliana with 16 samples.

Results

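A set of 147 Arabidopsis genes was raised in common by 3 mutants of the BAH-PHD-CPL2 (BPC) complex and by clf-81, a mutant of a Polycomb methyltransferase. The set was chosen from the mRNA-seq levels themselves. Genes entered when they reached 1 FPKM (fragments per kilobase of transcript, scaled to the mapped fragments of the library) in at least 2 of the 16 libraries, and were kept when d, the mean of log2(FPKM + 0.5) in a mutant minus that in wild-type Col-0, was at least 1 in aipp3-1, cpl2-2, the aipp2-1/paipp2-1 double mutant and clf-81. The 147 genes were 0.739% of the 19895 genes that passed the level filter, out of 33048 in the table. Of the 350 genes with d of at least 1 in the 3 BPC mutants, 42.0% also reached it in clf-81. The differences of these 4 mutants from Col-0 chose the genes, so they are given as a description, and no test of them is used as support.

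The BPC complex joins AIPP3, whose BAH domain binds the repressive histone mark H3K27me3, the related PHD-finger proteins AIPP2 and PAIPP2, which bind histone H3 that carries no methylation on lysine 4, and CPL2, a phosphatase of the RNA polymerase II tail. H3K27me3 itself is laid down by Polycomb repressive complex 2, of which CLF is a catalytic subunit, and it is bound by LHP1, a plant chromodomain protein. In seedlings H3K27me3 covers many genes that are silent until a developmental or environmental signal arrives, floral regulators and inducible defence genes among them.

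Polyadenylated RNA of seedlings aged 12 days was sequenced, in 2 libraries for each of 8 genotypes, all in the Col-0 background. The mutants were the T-DNA lines aipp3-1, cpl2-2 and aipp2-1, the paipp2-1 line made by CRISPR/Cas9 editing, the aipp2-1/paipp2-1 double mutant, clf-81 and lhp1-3, and Col-0 was the control; no group was treated. Plants grew on solid medium with sucrose in 16 h of light and 8 h of dark at 23 °C. Whole seedlings were the source, so more RNA per cell and a larger share of expressing cells cannot be told apart, and no source states that the 2 libraries of a genotype came from separate cultures, so the p-values measure the spread between these libraries.

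The low values of each library were whole multiples of 1 fragment to within 0.2 in 96.2% to 98.1% of cases, which placed the depth at 19180000 to 27100000 fragments. The mutated genes read 23.4% (AIPP3 in aipp3-1) to 76.1% (CLF in clf-81) of their Col-0 level in their own mutants. AIPP2 read 73.8% in aipp2-1 but 25.7% in the double mutant, which is named for the same allele. PAIPP2 read 66.1% in paipp2-1 and 72.7% in the double mutant. Why AIPP2 differed between the 2 genotypes was not tested, and it bears on the results for aipp2-1. Across all tested genes the libraries of a genotype correlated at 0.987 to 0.992, except for the double mutant at 0.943. In some genotypes the 147 genes leaned to 1 replicate more than all tested genes did. In aipp2-1, 118 of them read higher in replicate 2 and 26 in replicate 1. Of all tested genes, 54.99% read higher in replicate 2 there. In aipp3-1 the split was 39 to 108 (46.55% of all tested genes). It was 46 to 98 in paipp2-1 (47.26%), 95 to 50 in clf-81 (51.76%) and 91 to 56 in cpl2-2 (49.93%). In Col-0 it was 97 to 46, but 60.30% of all tested genes also read higher in replicate 2. In lhp1-3 it was 65 to 78 (36.75%). In the double mutant it was 60 to 87, close to the share of all tested genes (40.36%). The Col-0 libraries bear on the choice itself. Without Col-0 replicate 2 the rule picked 222 genes, 133 of them in the set. Without Col-0 replicate 1 the rule picked 128, of which 103 were in the set. Without 1 or the other double-mutant library it picked 143 or 135.

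**Figure D1:**
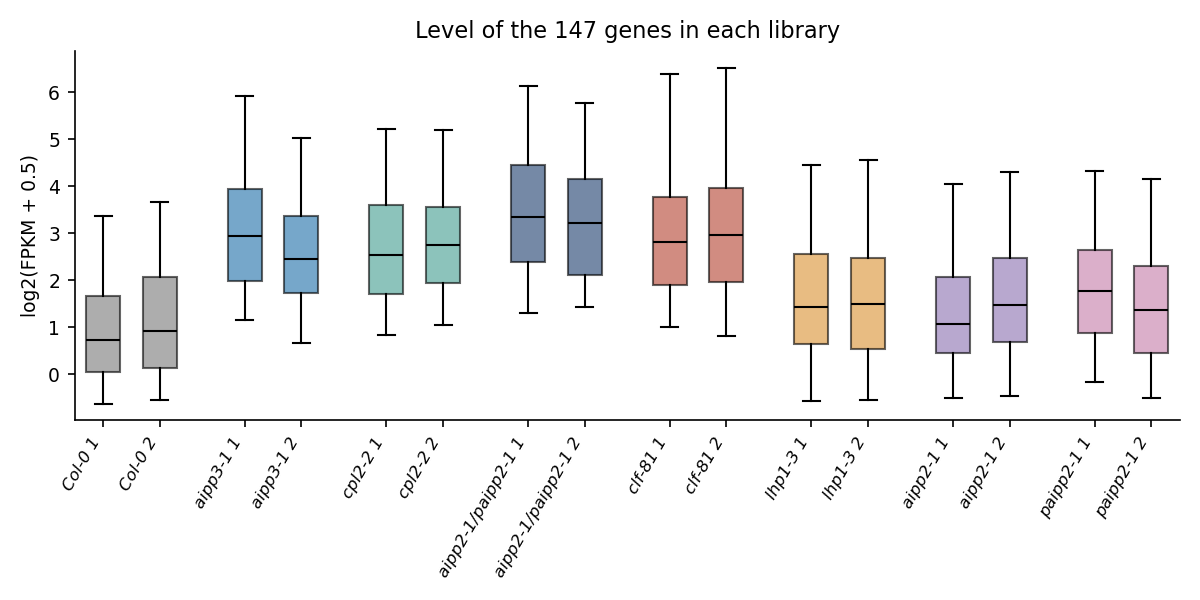
Level of the 147 genes in each of the 16 libraries, as log2(FPKM + 0.5); the box spans the middle quartiles, the line is the median and the whiskers reach the 5th and 95th percentiles. The Col-0 medians, 0.73 and 0.92, lie below every mutant library, and the 8 libraries that chose the genes lie between 2.45 and 3.34.

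In Col-0 the set was weakly expressed. The median gene had 1.39 FPKM, 59 genes were under 1 FPKM and 10 were over 10 FPKM, whereas the median over all tested genes was 9.39 FPKM; because Col-0 was one side of the rule, this level is part of how the genes were chosen. GSTF6 at 68.4 FPKM and JAL22 at 59.3 FPKM were the most abundant. AT2G06185, AT4G12065 and AT4G07635, all annotated as non-coding RNAs, were listed at 0 in both Col-0 libraries. AT4G12065 was also listed at 0 in replicate 2 of aipp3-1 and of the double mutant, so its place in the set rested on 1 library of each. It is annotated as a tRNA, and all 73 of its bases overlap the protein-coding gene AT4G12070 on the opposite strand. Its reads may therefore belong to that gene. AT4G07635 is annotated as a snoRNA.

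Across the 147 genes the median d was 1.68 in aipp3-1, 1.60 in cpl2-2, 2.23 in the double mutant and 1.70 in clf-81. The double mutant had the highest d of the 4 for 70 genes, clf-81 for 46, aipp3-1 for 17 and cpl2-2 for 14. AT4G07635 (1.0000 in clf-81) and PEP3 (1.0013 in cpl2-2) stood just inside the limit, and AR781 (0.9984 in cpl2-2) and P5CSA (0.9918 in clf-81) just outside. In 47 genes every one of the library pairs reached the limit in all 4 mutants.

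**Figure D2:**
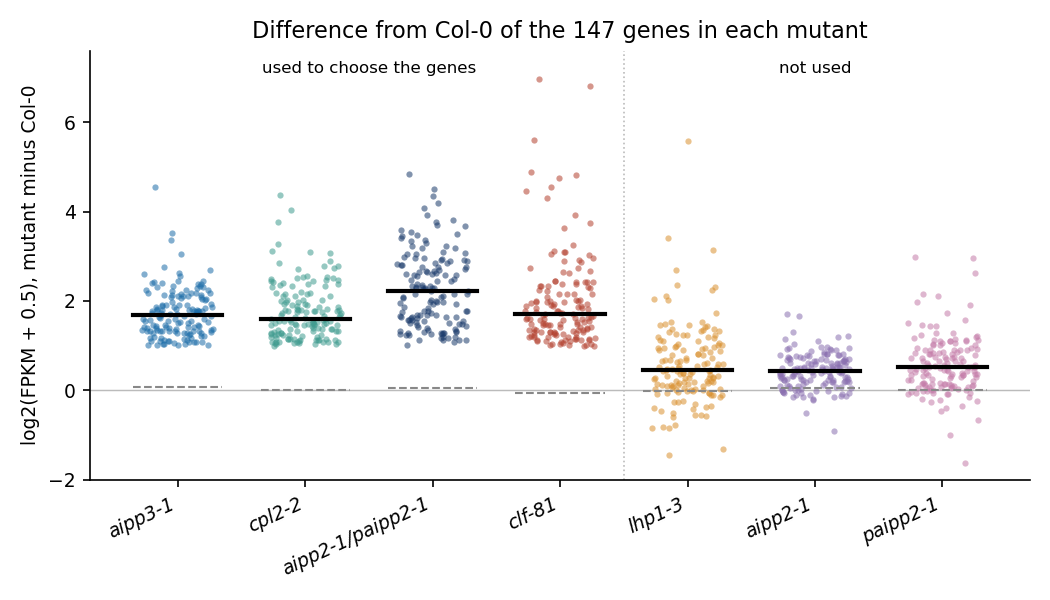
Difference of each of the 147 genes from Col-0, as mutant minus Col-0 in mean log2(FPKM + 0.5), in the 4 mutants that chose the genes (left of the dotted line) and the 3 that did not. Black lines are the medians of the set, from 1.60 to 2.23 on the left and from 0.43 to 0.52 on the right; dashed grey lines are the medians of all tested genes, which lie between -0.06 and 0.07.

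The deposited annotation described many of the genes as stress-induced. Of the 120 genes that it gave a biological process, 28 (23.3%) were placed in a defense response, 16 (13.3%) in a response to bacterium, 15 (12.5%) in a salicylic acid term and 13 (10.8%) in the response to chitin, the fungal wall polymer. Over the tested genes with a process these shares were 5.62%, 2.20%, 1.24% and 0.691%. Flower development was given to 1 gene (0.833% against 1.57%). Roles below were assigned to 83 genes after the set was known, and the other 64 were left without one.

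Gene structure and upstream sequence were not used by the rule, and their shares are given beside those of all tested genes without a test. Of the 143 genes with a transcript in the RefSeq annotation (build TAIR10.1), 47 (32.9%) had no intron, against 15.6% of all tested genes, and the median transcript was 1250 bases long against 1722. In the 250 bases before the annotated start, the letters TTGAC, the core of the W-box that WRKY factors bind, occurred on either strand at least 1 time in 95 of 145 genes (65.5%) and in 45.1% of tested genes, and at least 2 times in 33.1% and 14.3%. The CGCG-box letters CGCGT, known as a site of calmodulin-binding factors, occurred in 20.7% against 7.44%. The G-box CACGTG (7.59% against 7.42%), the telobox AAACCCTA (3.45% against 3.62%) and GAGAGA (20.0% against 19.1%) were near the background. The median GC content of these windows was 31.2% in both. These are letter matches in a short window and no binding was measured.

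Upstream windows are shown for 4 genes on which the results below turn and for the pair with the most W-box cores (FOX1 and PEP3, 4 each), read 5′ to 3′ in the direction of the gene and ending next to its annotated start, with TTGAC or its reverse complement in capitals. WRKY33, CYP71A13 and ZAT7 carried 2 cores, and BAM5 had none. Whether the number of cores goes with the profile over the mutants was not tested.
FOX1 (TAIR10.1 chr1:9128569-9128818, minus strand): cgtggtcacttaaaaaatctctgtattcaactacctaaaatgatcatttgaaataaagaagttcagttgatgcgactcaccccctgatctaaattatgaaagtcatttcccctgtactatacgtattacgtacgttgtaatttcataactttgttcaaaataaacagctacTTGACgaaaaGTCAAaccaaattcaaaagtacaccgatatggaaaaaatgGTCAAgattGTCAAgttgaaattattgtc
PEP3 (TAIR10.1 chr5:25939312-25939561, plus strand): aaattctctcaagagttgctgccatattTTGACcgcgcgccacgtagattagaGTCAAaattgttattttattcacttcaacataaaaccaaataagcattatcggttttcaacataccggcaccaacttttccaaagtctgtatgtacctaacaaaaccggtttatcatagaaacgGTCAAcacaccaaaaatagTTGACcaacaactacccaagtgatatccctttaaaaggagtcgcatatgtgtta
WRKY33 (TAIR10.1 chr2:16107985-16108234, plus strand): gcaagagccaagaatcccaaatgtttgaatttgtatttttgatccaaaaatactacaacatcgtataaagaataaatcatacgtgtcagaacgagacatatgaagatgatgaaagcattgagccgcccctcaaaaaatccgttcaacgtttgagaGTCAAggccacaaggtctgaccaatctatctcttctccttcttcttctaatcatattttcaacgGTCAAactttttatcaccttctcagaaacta
CYP71A13 (TAIR10.1 chr2:13111989-13112238, minus strand): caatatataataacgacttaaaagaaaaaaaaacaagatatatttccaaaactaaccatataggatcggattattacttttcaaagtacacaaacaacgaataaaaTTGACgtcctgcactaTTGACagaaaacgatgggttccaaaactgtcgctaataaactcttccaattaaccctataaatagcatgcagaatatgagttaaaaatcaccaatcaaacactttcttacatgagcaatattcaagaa
ZAT7 (TAIR10.1 chr3:16926884-16927133, minus strand): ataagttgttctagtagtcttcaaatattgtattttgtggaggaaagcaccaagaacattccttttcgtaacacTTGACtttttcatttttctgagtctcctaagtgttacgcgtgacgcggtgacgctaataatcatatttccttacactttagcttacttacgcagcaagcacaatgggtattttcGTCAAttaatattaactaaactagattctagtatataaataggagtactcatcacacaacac
BAM5 (TAIR10.1 chr4:8669527-8669776, minus strand): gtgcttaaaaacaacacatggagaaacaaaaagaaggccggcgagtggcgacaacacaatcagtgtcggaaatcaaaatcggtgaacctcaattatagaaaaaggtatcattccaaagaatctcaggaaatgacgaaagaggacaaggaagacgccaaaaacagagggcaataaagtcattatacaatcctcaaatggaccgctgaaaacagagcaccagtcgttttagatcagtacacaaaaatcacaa

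**Figure D3:**
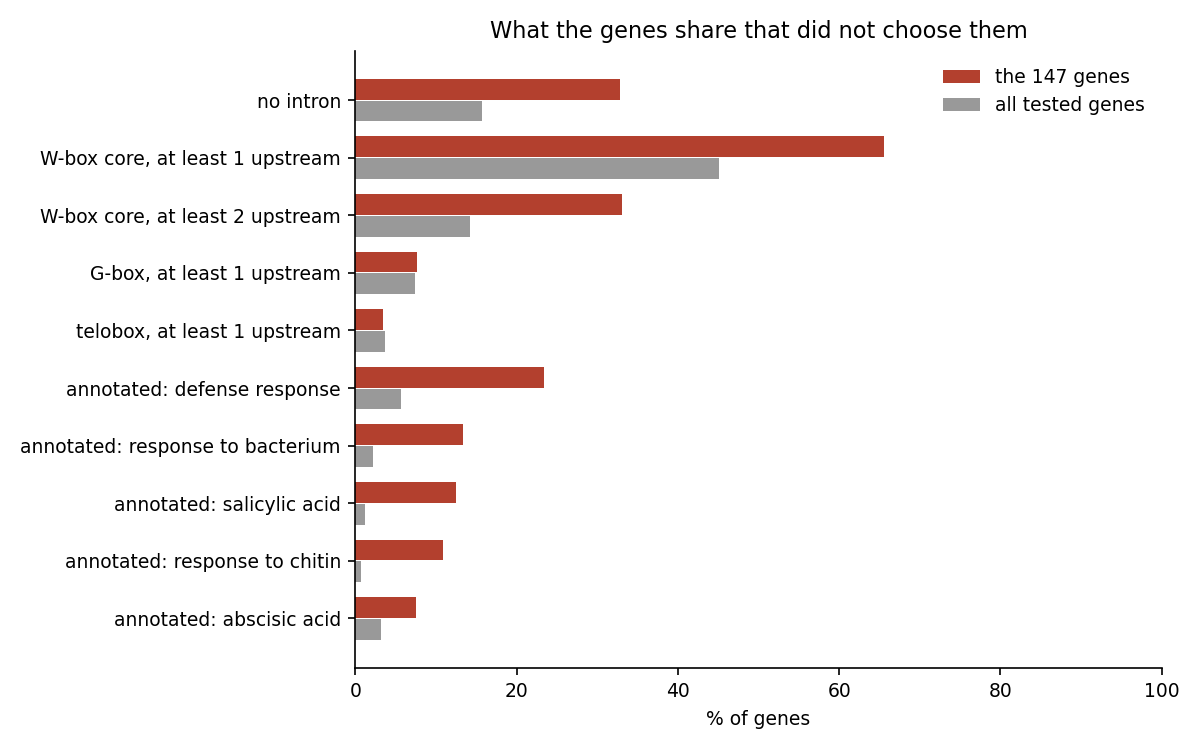
Share of genes, in %, with each feature in the set (red) and in all tested genes (grey): 143 genes with a transcript for introns, 145 for the 250 upstream bases and 120 with a process for the annotated terms. The red bars are longer for genes without introns (32.9% against 15.6%), for the W-box core (65.5% against 45.1%) and for the annotated terms, and the G-box bars are nearly equal.

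Transcription factors made up the largest role, with 18 genes, and they include zinc-finger (ZAT), WRKY, ERF, MYB and NAC proteins that respond within a short time to stress. ZAT7, a zinc-finger repressor, had the largest least difference of the whole set. It read 0.79 and 1.33 FPKM in Col-0 against 12.88 and 6.16 in aipp3-1, 12.03 and 8.46 in cpl2-2, 17.41 and 9.07 in the double mutant, and 10.52 and 11.49 in clf-81. All 8 of these mutant libraries lay above both Col-0 libraries, and d was 2.62, 2.79, 3.09 and 2.90 in that order. ZAT8, its neighbour on chromosome 3, had d of 2.15, 2.51, 1.63 and 2.92.

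WRKY33, a positive regulator of camalexin synthesis and of resistance to necrotrophic fungi, read 13.14 and 14.65 FPKM in Col-0 against 97.72 and 36.91 in aipp3-1, 31.27 and 30.53 in cpl2-2, 151.55 and 58.61 in the double mutant, and 37.3 and 42.82 in clf-81. Every one of these mutant libraries lay above both Col-0 libraries, by values that the rule used. The aipp3-1 libraries overlapped those of the double mutant and spanned both clf-81 libraries. Replicates differed by more within aipp3-1 and within the double mutant than within cpl2-2 or clf-81. WRKY40, a repressor of defence genes, followed the same order, with d of 2.77, 1.79, 3.49 and 2.01. NAC019, a factor of abscisic acid and jasmonate responses, was highest in clf-81: 0.58 and 0.30 FPKM in Col-0 against 16.33 and 19.83 in clf-81 and 1.23 to 5.32 in the 6 BPC mutant libraries. Other genes overlap WRKY33 and WRKY40 on the opposite strand, and unless the counting used strand, which the sources used here do not state, their reads cannot be told apart.

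Enzymes of camalexin and indole metabolism formed a group of 6. Camalexin is the main phytoalexin of Arabidopsis, made from tryptophan. CYP71A12 and CYP71A13, which turn indole acetaldoxime into the nitrile, lie as close neighbours on chromosome 2. CYP71A13 read 1.06 and 0.49 FPKM in Col-0 against 4.05 and 2.37 in aipp3-1, 4.33 and 9.03 in cpl2-2, 7.12 and 8.81 in the double mutant, and 3.35 and 5.18 in clf-81. CYP71A12 was highest in clf-81, with 24.27 and 28.92 FPKM against 2.19 and 2.52 in Col-0 and 5.23 to 16.33 in the BPC mutant libraries. CYP71B15 (PAD3), the enzyme of the last step, had d of 1.09, 1.06, 1.32 and 2.38. FOX1, an oxidase of the indole carbonyl nitrile pathway, was highest in the double mutant: 0.87 and 0.55 FPKM in Col-0 and 26.55 and 17.53 there, with d of 2.57, 1.97, 4.20 and 1.98. Another annotated gene overlaps CYP71A13 on the opposite strand.

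Pathogenesis-related genes and markers of salicylic acid, the hormone of resistance to biotrophic pathogens, were raised to unequal extents. PR1, the classical marker, read 14.36 and 28.04 FPKM in Col-0 against 98.54 and 81.68 in aipp3-1, 341.67 and 330.33 in cpl2-2, 474.11 and 728.14 in the double mutant, and 83.69 and 151.59 in clf-81. The clf-81 and aipp3-1 libraries overlapped, and cpl2-2 and the double mutant lay above both. CHI, a chitinase, had d of 1.43, 3.09, 2.62 and 1.42. AT4G33720, a secreted protein of the PR1 family, went the other way: its clf-81 libraries read 88.86 and 104.44 FPKM, above the 5.72 to 53.34 of the BPC mutants and the 0.59 and 3.19 of Col-0. GRXC9, a glutaredoxin induced by salicylic acid, was even across the 4 mutants (d of 2.69, 2.55, 3.07 and 3.10).

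A list of 26 salicylic acid and defence genes put 4 in the set (PR1, WRKY38, WRKY62 and NIMIN-2). Of all 26, limma with Benjamini-Hochberg adjustment over all tested genes called 14 higher in aipp3-1, 18 in cpl2-2, 23 in the double mutant and 6 in clf-81, where a call was an adjusted p under 0.05 and at least a 2-fold difference; the shares of all tested genes called higher were 3.14%, 2.71%, 6.44% and 5.98%. It called none of the 26 lower in the BPC mutants and 1 in clf-81, beside 0.251%, 0.332%, 1.28% and 2.55% of all tested genes. These contrasts are the ones that chose the set, so the counts describe the list and the difference between clf-81 and the BPC mutants was not tested. The rule itself raised the 4 genes in the set. Of the 22 outside it, 11 were called higher in aipp3-1, 14 in cpl2-2, 19 in the double mutant and 2 in clf-81. FMO1, needed for systemic acquired resistance, was 2.50, 3.06 and 2.66 higher on the log2 scale in the 3 BPC mutants. SARD1, an activator of salicylic acid synthesis, was 2.01, 2.37 and 3.73 higher. In clf-81 the 6 called higher were the 4 in the set, UGT76B1 (1.87) and PBS3 (1.53), and ACD6 was called lower (-1.45). The summed level of the 26 genes was 175 to 228 FPKM in Col-0, 475 to 552 in aipp3-1, 913 to 967 in cpl2-2, 1293 to 1342 in the double mutant and 329 to 443 in clf-81.

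Receptors, kinases and signal peptides of immunity formed a group of 15, and calcium-binding and calcium-transport proteins a group of 9. MPK11, a MAP kinase activated by microbial patterns, read 0.40 and 0.83 FPKM in Col-0 and 14.42 and 11.26 in the double mutant, with 2.67 to 4.15 FPKM in the libraries of the other 3 mutants. PEP3, the precursor of a peptide that alerts neighbouring cells, had d of 1.78, 1.00, 2.29 and 1.53. CML30, a calmodulin-like protein, read 0.64 and 0.88 FPKM in Col-0 against 17.65 and 5.37 in aipp3-1, 6.34 and 3.31 in cpl2-2, 25.92 and 9.50 in the double mutant and 4.77 and 7.04 in clf-81. Its replicates within aipp3-1 and within the double mutant differed by more than the means of cpl2-2 and clf-81 did.

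The roles were assigned after the set was known and d chose the genes, so differences between roles are a description and were not tested. Of the roles, a group tied to jasmonate, abscisic acid, ageing and stored reserves had the highest median d in clf-81. Of its 9 genes, 7 were higher in clf-81 than in the mean of the 3 BPC mutants, and its median d was 4.74 in clf-81 but 1.46, 1.86 and 2.57 in aipp3-1, cpl2-2 and the double mutant. LTP4, a lipid transfer protein, had the largest gap: 0.33 and 3.77 FPKM in Col-0, 3.44 to 18.8 in the 6 BPC mutant libraries and 220.22 and 250.16 in clf-81. The Col-0 and aipp3-1 libraries of LTP4 overlapped. BAM5, a beta-amylase, read 1.03 and 4.13 FPKM in Col-0, 5.99 to 45.44 in the BPC mutant libraries and 246.59 and 366.23 in clf-81. JRG21, a jasmonate oxidase, was the third, at 27.38 and 35.18 FPKM in clf-81 against 1.00 to 6.72 in the BPC mutant libraries. SAG13, a marker of senescence, and RNS1, a secreted ribonuclease, were also far above the BPC mutants in clf-81, with d of 4.74 and 4.81.

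The reverse end was led by SUC5, a sucrose and biotin carrier. It read 0.19 and 0.46 FPKM in Col-0 against 3.73 and 2.46 in aipp3-1, 11.17 and 10.19 in cpl2-2, 12.83 and 24.91 in the double mutant and only 1.29 and 1.08 in clf-81. Its d in clf-81, 1.05, was 2.42 below the mean of the BPC mutants. SBT3.3, a subtilase of immune priming (-1.70), and the AAA ATPase AT3G28540 (-1.68) came next. Over the set, 61 genes were higher and 86 lower in clf-81 than in the BPC mean, 23 and 12 of them by at least 2-fold, with a median gap of -0.10.

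PEPC1, a phosphatase induced by phosphate starvation, had a pattern of its own among the BPC mutants. Its libraries read 0.71 and 1.09 FPKM in Col-0 and 31.61 and 32.02 in aipp3-1, but 2.57 and 3.51 in cpl2-2, 3.60 and 2.19 in the double mutant and 3.28 and 2.16 in clf-81. The aipp3-1 libraries were thus separate from the others, which overlapped. MSTRG.6865, a locus that the table names only by an assembly number, was likewise highest in aipp3-1: 31.06 and 25.52 FPKM in aipp3-1 and 3.80 to 6.61 in the other 6 libraries. Both were next highest in lhp1-3, at 6.36 and 6.45 FPKM for PEPC1 and 10.61 and 9.13 for MSTRG.6865.

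**Figure D4:**
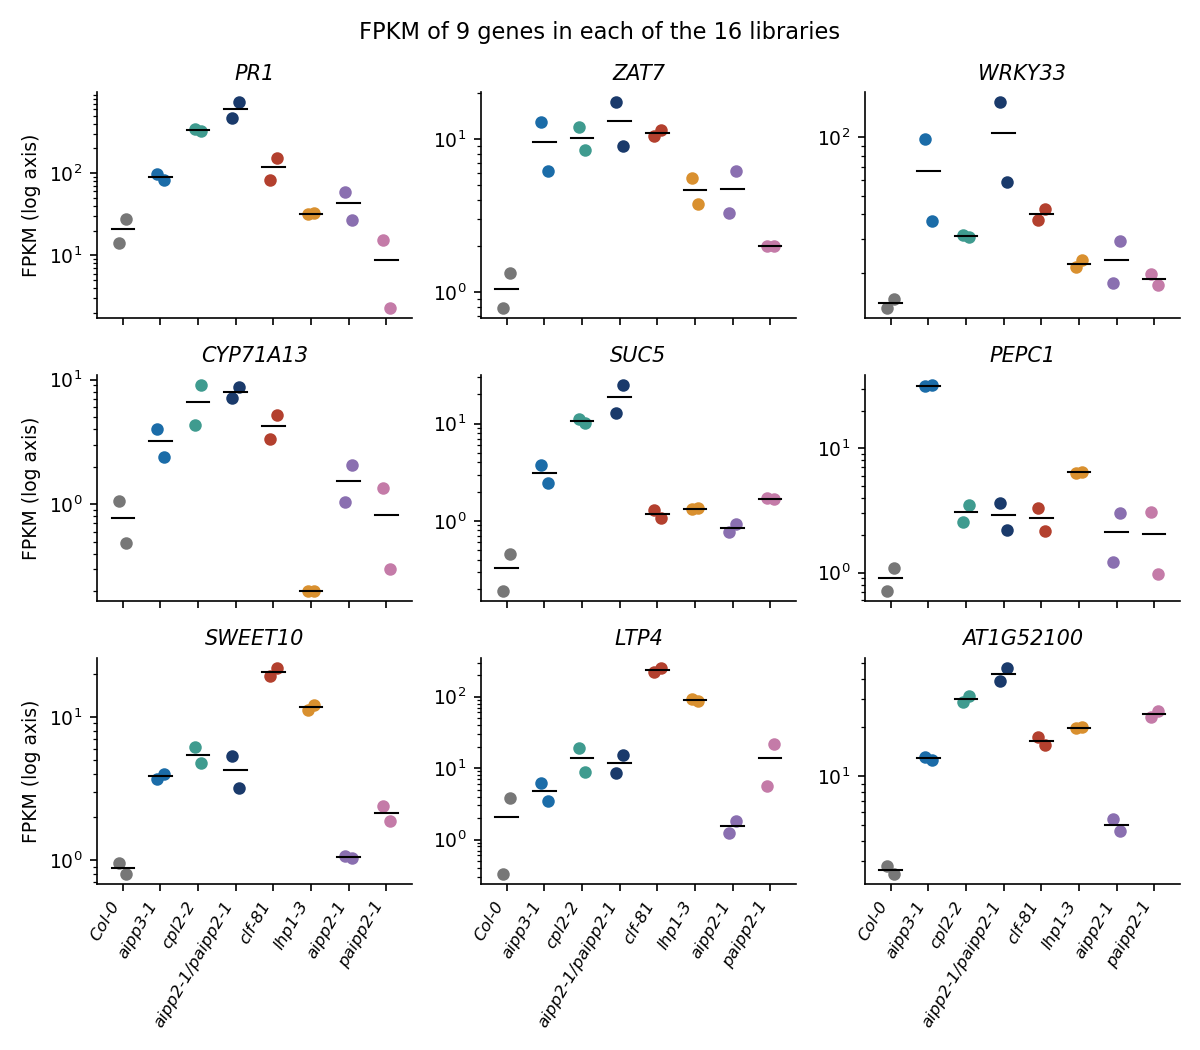
FPKM (log axis) of 9 genes in each of the 16 libraries; points are libraries and lines are genotype means. PR1 and SUC5 peak in the double mutant, LTP4 and SWEET10 in clf-81 with lhp1-3 next, PEPC1 in aipp3-1, and AT1G52100 is closer to its double-mutant level in paipp2-1 than in aipp2-1.

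The genotypes outside the rule gave smaller differences from Col-0. They share the Col-0 libraries with the rule, so they are not independent of it, and their values are set side by side. The median d was 0.45 in lhp1-3, 0.43 in aipp2-1 and 0.52 in paipp2-1, where the medians of all tested genes were -0.01, 0.05 and 0.01. Of the 147 genes, 114 (77.6%), 128 (87.1%) and 124 (84.4%) were above 0, beside 48.5%, 63.5% and 53.0% of all tested genes. Both libraries lay above both Col-0 libraries for 84 genes in lhp1-3 (33.9% of all tested genes did so), for 68 in aipp2-1 (26.5%) and for 82 in paipp2-1 (25.1%).

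With limma, 32 of the 147 genes were called higher and 0 lower in lhp1-3 than in Col-0, beside 2.80% and 1.82% of all tested genes, and 55 were higher and 6 lower at an unadjusted p under 0.05, beside 15.8% and 15.3%. The count of 32 fell to 14 without Col-0 replicate 1, to 17 without lhp1-3 replicate 1 and to 19 without lhp1-3 replicate 2. In aipp2-1 no gene of the set was called in either direction, beside 0.00503% called higher and 0.0% lower of all tested genes, and 26 were higher and 1 lower at an unadjusted p under 0.05, beside 2.40% and 1.25%. In paipp2-1 limma called 5 higher and 0 lower, beside 0.131% and 0.0352%: AT1G52100, JAL22, DVL10, AT4G33120 and IGMT1. That count ran from 2 to 22 when single libraries were left out, and 22 was reached without either library of the double mutant, whose replicates were the least alike. Leaving out a library changes the residual variance for all tested genes. The share of all tested genes called in these refits is not given, so the rise is not a result about the set.

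A comparison whose differences use no Col-0 library set lhp1-3 against the mean of aipp2-1 and paipp2-1, mutants of a reader of H3K27me3 and of single PHD proteins; the residual variance behind its SE and p comes from all 16 libraries, Col-0 included. The median difference of the set was -0.04, as it was for all tested genes. Of the 147, 69 (46.9%) were above 0, near the 45.0% of all tested genes. By limma, 16 were called higher in lhp1-3 and 7 lower, beside 2.53% and 2.31% of all tested genes. Both lhp1-3 libraries lay above all 4 single-mutant libraries for 40 genes (24.5% of all tested genes) and below them for 25 (31.0%). Leaving out lhp1-3 replicate 1 or 2 brought the calls to 8 or 9 higher and to 4 or 2 lower.

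The genes higher in lhp1-3 held 5 of the 9 in the jasmonate, abscisic acid, ageing and reserve group. LTP4 read 92.36 and 86.09 FPKM in lhp1-3, 1.24 and 1.84 in aipp2-1 and 5.64 and 21.6 in paipp2-1, a log2 difference of 4.21 ± 0.61 (SE; adjusted p = 0.00055, limma). BAM5 read 27.36 and 28.03 FPKM in lhp1-3, 1.45 and 2.76 in aipp2-1 and 14.45 and 2.34 in paipp2-1 (2.80 ± 0.60, adjusted p = 0.0055, limma). In both genes the lhp1-3 libraries lay above every single-mutant library, and the paipp2-1 replicates differed severalfold. Without lhp1-3 replicate 2 the adjusted p of BAM5 was 0.055 (limma). RNS1 at 8.33 and 6.72 FPKM against 1.04 to 1.71 (2.14 ± 0.22, adjusted p = 5.2e-05, limma) and SAG13 at 10.66 and 12.56 FPKM against 2.55 to 4.63 (1.57 ± 0.31, adjusted p = 0.0033, limma) were more even.

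SWEET10, a sucrose exporter that acts downstream of the florigen FT, had the smallest adjusted p. It read 11.13 and 12.13 FPKM in lhp1-3, 1.07 and 1.04 in aipp2-1 and 2.38 and 1.88 in paipp2-1, with 19.12 and 21.83 in clf-81 (2.59 ± 0.18, adjusted p = 2.8e-06, limma). CAX3, a vacuolar calcium exchanger (1.27 ± 0.13), PER52, a cell wall peroxidase (1.63 ± 0.22), and ACS7, an enzyme of ethylene synthesis (1.14 ± 0.24), were also called higher. AT14A, a membrane protein, was 1.12 ± 0.15 higher, but it has a copy with the same transcript sequence, so its reads may have been split. The remaining 7 were MSTRG.6865, PEPC1, JRG21, AT3G28510, CYP76C6, AT2G37870 and FLS2, here the flavonol synthase gene AT5G63580, and their differences ran from 1.05 to 1.60. Against Col-0, SAG13, JRG21 and AT3G28510 were not called in lhp1-3 (0.79, 0.98 and 1.52), whereas the others of the 16 were called higher. From Col-0, aipp2-1 and paipp2-1 differed by -0.91 and -0.66 for SAG13, by -0.50 and -0.41 for JRG21 and by 0.33 and 0.11 for AT3G28510.

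Of the 7 genes lower in lhp1-3, 5 belonged to the immune signalling, pathogenesis-related, transcription factor and camalexin groups above, which held 15, 8, 18 and 6 genes of the set, and this share was not tested. AT3G29970, a B12D family protein, read 0.13 and 0.22 FPKM in lhp1-3, 1.95 and 1.81 in aipp2-1 and 11.5 and 4.07 in paipp2-1 (-2.64 ± 0.46, adjusted p = 0.0017, limma). AIG1, a GTP-binding protein induced by avirulent bacteria, read 0.92 and 0.64 FPKM in lhp1-3 against 2.92 to 15.38 in the single mutants (-2.40 ± 0.50, adjusted p = 0.0051, limma). The lhp1-3 libraries of both were below all single-mutant libraries. AT4G33720 was -2.05 ± 0.50, the peptide gene DVL10 -1.66 ± 0.23 and the zinc-finger gene ZAT10 -1.38 ± 0.35. CYP71A13, at 0.20 FPKM in each lhp1-3 library (-1.15 ± 0.38), and GSTF6, a glutathione transferase of camalexin synthesis (-1.08 ± 0.23), completed the list. Without lhp1-3 replicate 2 the adjusted p by limma was 0.063 for AIG1, 0.095 for AT4G33720 and 0.070 for ZAT10, and without replicate 1 it was 0.072 for AT4G33720 and 0.12 for ZAT10. Against Col-0, none of the 7 was called lower in lhp1-3. That difference was -1.31 for AT3G29970, -1.44 for AIG1, -0.83 for CYP71A13 and -0.85 for GSTF6. It was -0.09 for AT4G33720, -0.41 for DVL10 and 0.44 for ZAT10. For these last genes aipp2-1 was 0.92, 0.90 and 1.67 above Col-0, and paipp2-1 2.99, 1.58 and 1.97.

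**Figure D5:**
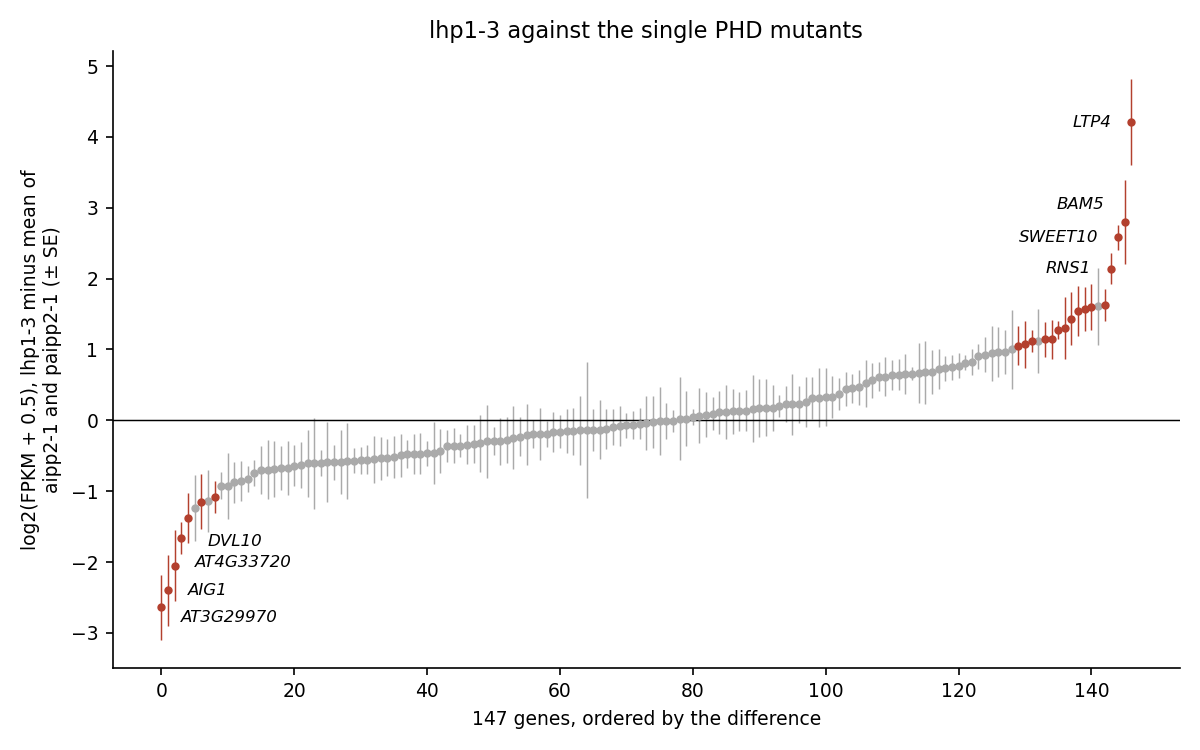
Difference of each of the 147 genes between lhp1-3 and the mean of aipp2-1 and paipp2-1, in log2(FPKM + 0.5) with its SE, in order of size; red marks the 16 genes called higher and the 7 called lower. The points run from -2.64 (AT3G29970) to 4.21 (LTP4) and cross 0 near the middle of the set.

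Marker lists moved with these genotypes, and their part in the results was not tested. The summed level of 7 floral organ identity genes (AG, AP1, AP3, PI, SEP1, SEP2 and SEP3) was 131 to 133 FPKM in lhp1-3 and 146 to 153 in clf-81, against 2.90 to 4.14 in Col-0, 3.50 to 6.94 in the single PHD mutants and 6.73 to 11.8 in the other BPC mutants. Of 21 tested Polycomb target regulators, none of which was in the set, 12 were called higher and 1 lower in clf-81, beside 5.98% and 2.55% of all tested genes, and likewise 12 and 1 in lhp1-3, beside 2.80% and 1.82%. Of the same 21 genes, 1 was called higher in aipp3-1, 3 in cpl2-2 and 5 in the double mutant, beside 3.14%, 2.71% and 6.44% of all tested genes. FLC was called lower in cpl2-2 (-1.59) and in the double mutant (-1.47), and none was in aipp3-1. All tested genes called lower were 0.332%, 1.28% and 0.251% in that order. In lhp1-3 against the single PHD mutants 11 of the 21 were called higher and 2 lower, beside 2.53% and 2.31%. The summed level of 14 seed storage and maturation genes was 118 to 260 FPKM in the double mutant, 12.9 to 60.8 in paipp2-1, 13.2 to 40.0 in cpl2-2 and 6.86 to 14.4 in aipp3-1, against 0.89 to 1.64 in aipp2-1, 1.48 to 1.77 in Col-0, 2.95 to 3.33 in lhp1-3 and 3.94 to 4.09 in clf-81. The 3 leaf markers summed to 685 to 741 FPKM in Col-0, 417 to 437 in aipp3-1, 343 to 454 in cpl2-2, 604 to 632 in the double mutant, 441 to 508 in clf-81, 831 to 841 in lhp1-3, 574 to 669.5 in aipp2-1 and 654 to 657 in paipp2-1. Only 1 of the 3 leaf markers, BCA1, passed the level filter, so the leaf sums largely follow that gene. None of the 14 seed genes was in the set, and none was at 0 in every library.

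The single PHD mutants differed from each other in 3 genes of the set and in few genes at all. By limma, 3 were called higher and 0 lower in paipp2-1 than in aipp2-1, beside 0.0503% and 0.0302% of all tested genes; at an unadjusted p under 0.05, 28 were higher and 6 lower, beside 4.34% and 5.32%. AT1G52100, a jacalin-related lectin, read 23.11 and 25.09 FPKM in paipp2-1 and 5.44 and 4.59 in aipp2-1, with 2.80 and 2.50 in Col-0 and 38.46 and 46.33 in the double mutant. The paipp2-1 libraries were nearer to the double mutant than to aipp2-1 (2.16 ± 0.12, adjusted p = 1.2e-05, limma). JAL22, another lectin of this family, read 181.65 and 216.38 FPKM in paipp2-1, 64.77 and 69.8 in aipp2-1 and 64.99 and 53.55 in Col-0 (1.55 ± 0.18, adjusted p = 0.0067, limma), and its adjusted p was 0.077 to 0.097 without aipp2-1 replicate 1 or 2 or paipp2-1 replicate 2. AT14A was 1.11 ± 0.18 higher (adjusted p = 0.043, limma), and this call was lost in 16 of 25 alternatives.

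The opposite tendency in PR1 was not called. PR1 read 15.28 and 2.29 FPKM in paipp2-1 and 59.33 and 26.72 in aipp2-1, and the 2 groups did not overlap. The replicates within each single mutant also differed more than 2-fold.

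Neighbouring genes of the set formed 9 pairs with at most 2 annotated genes between them: GSTF7 and GSTF6, AT1G24145 and AT1G24147, FOX1 and FOX2, AT1G72910 and TIR, AT2G06185 and LURP1, CYP71A12 and CYP71A13, WRKY46 and CNGC3, AT3G28510 and AT3G28540, and ZAT8 and ZAT7. Most pairs are members of 1 gene family. Paired genes did not always share a profile: FOX2 was highest in clf-81 (d of 2.63) where FOX1 was highest in the double mutant. AT1G72910 and TIR, 96.0% identical over 782 bases, may share reads. AT1G53885 and AT1G53903 have the same transcript sequence and nearly equal values, so they count as 1 measurement.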

How the data were processed

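The authors deposited 1 table of FPKM values for the 16 libraries. Their methods name SeqPrep and Sickle for read trimming, and the submitters' processing notes list TopHat, Bowtie, RSEM and edgeR, with no version; the genome build is not given in the sources used here. Columns of the authors' own comparisons were not used. The deposited FPKM values were taken as log2(FPKM + 0.5) and fitted for all 19895 genes with limma 3.58.1 (R 4.3.3; trended eBayes, Benjamini-Hochberg), 1 mean per genotype. A call needed an adjusted p under 0.05 and at least a 2-fold difference, and fold changes on this scale understate those of low genes. The genes, lists, tests and alternatives were chosen with earlier results of these data known.

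Genes named are the 12 with the largest least d, the 5 highest and 5 lowest called between lhp1-3 and the single PHD mutants, genes that the study names, list members, neighbours, genes next to the limit, the 2 highest and 2 lowest in Col-0, and the 3 with the largest and smallest gap between clf-81 and the BPC mutants; other genes were chosen after their values were seen. Symbols, structures and sequences come from RefSeq (TAIR10.1), which held 145 of the 147 genes. Copies were sought with BLAST 2.17.0 (at least 95% identity over 200 bases). On simulated data with 200 genes changed by 2 on the log2 scale between lhp1-3 and the single PHD mutants, among 19895 genes, 199 were called with the right sign and 6 unchanged genes were called. The simulated noise was independent between genes, and many differences called in the real libraries were smaller than 2. These counts therefore do not give the error rate or the power of the calls reported here.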

Additional observations from a re-analysis of the deposited data

Results flagged for a closer look

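Genotypes outside the rule differed from each other in some of the 147 genes by limma's test of the difference. Between lhp1-3 and the mean of aipp2-1 and paipp2-1, 16 genes were called higher and 7 lower; the widest differences on the log2 scale were 4.21 for LTP4, 2.80 for BAM5, 2.59 for SWEET10, 2.14 for RNS1 and 1.63 for PER52, and -2.64 for AT3G29970, -2.40 for AIG1, -2.05 for AT4G33720, -1.66 for DVL10 and -1.38 for ZAT10. Between paipp2-1 and aipp2-1, 3 were called higher: AT1G52100 (2.16), JAL22 (1.55) and AT14A (1.11). With 2 libraries a group, no library was tested for standing apart.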

How the results depend on the processing

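The size of the set followed its settings: 317 genes with a pseudocount of 0.1, 92 with 1, 47 when each library pair had to reach the limit and 94 when limma also had to call each of the 4 mutants, a size that rests on the values used for the choice; leaving out single libraries gave 128 to 222. In lhp1-3 against Col-0 the genes called higher ranged from 14 to 36 over left-out libraries and those called lower stayed at 0, with 3 at a pseudocount of 0.1, 1 with only the libraries compared and 2 by adjusted p alone. Against the single PHD mutants, left-out libraries gave 8 to 18 higher and 2 to 10 lower; adjusted p alone gave 28 and 15, and a pseudocount of 0.1 gave 13 lower. In paipp2-1 against Col-0, left-out libraries gave 2 to 22 higher, no filter gave 3 and only the libraries compared gave 1; against aipp2-1 they gave 1 to 8 higher and 0 to 2 lower. BAM5 and AIG1 lost their call without lhp1-3 replicate 2, AT4G33720 and ZAT10 without either lhp1-3 library, and JAL22 without aipp2-1 replicate 1 or 2 or paipp2-1 replicate 2. None of the 13 genes named in these comparisons changed sign. The share of all tested genes called in each alternative is not given here, so these ranges describe the calls and not the set alone. The causes were not tested.

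Replicate numbers did not pair the samples (correlations of deviations from -0.218 to -0.000828). With the replicate number as a block, 32 genes were called higher in lhp1-3 against Col-0, 16 higher and 6 lower against the single PHD mutants, and 2 in paipp2-1 against aipp2-1. With crossed numbers, chosen after seeing the data, the counts against Col-0 were 33 in lhp1-3 and 7 in paipp2-1. Depth limits the low genes, since 3 fragments in Col-0 correspond to 0.13 FPKM for ZAT7.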

Other observations

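None of the genes in 4 chromatin lists was in the set: 8 PRC2 subunits, 12 PRC1 components and H3K27me3 readers, 4 BPC genes and 5 H3K27me3 demethylases. The summed level of the demethylases was 47.6 to 48.2 FPKM in lhp1-3 and 31.1 to 38.7 in the other genotypes, and JMJ30 (log2 difference 1.11 from Col-0) was the only one of the 5 that limma called there, while the median of the list was -0.05. Root markers (4 genes) summed to 29.7 to 46.1 FPKM over the 16 libraries. Pollen markers (2 genes) summed to 14.9 to 15.1 in lhp1-3 and 22.4 to 31.3 in the other genotypes. Only 1 of the 2 pollen markers, TUBA1, passed the level filter, so the pollen sums largely follow that gene. By limma TUBA1 was not called in lhp1-3 against Col-0 (log2 difference -0.73). No leaf, root or pollen marker was in the set. Outside the set, 3 salicylic acid and defence genes were called lower in lhp1-3 than in Col-0 by limma, beside 1.82% of all tested genes: BGL2 (-3.65), WRKY70 (-1.56) and ACD6 (-1.43).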
